A study of Chlorocebus sabaeus with 45 samples.

Results

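The data described here are the blood levels of 10 genes of the core autophagy machinery, taken from 45 RNA-seq libraries of 15 juvenile male vervet monkeys (Chlorocebus sabaeus). The genes were ULK1, ULK2, BECN1, ATG5, ATG7, MAP1LC3B, GABARAP, GABARAPL1, GABARAPL2 and SQSTM1. The rule that selects them uses their symbols and no measured value, although the list was drawn up with earlier results of these data known, and each of them was found among the 33994 genes in the files. The animals were trapped in the wild on the Caribbean island of St. Kitts, 1 from each troop. Each animal gave whole blood on day 0 in the field, under ketamine and xylazine shortly after trapping, and again on day 3 and day 14 in single housing in a quarantine facility, under dexmedetomidine and midazolam. The comparisons ask how blood RNA differed between the field baseline and a short or longer exposure to relocation and isolation, which the study treats as a psychosocial stressor. All animals were captured and sampled on every day, and no animals that stayed in the field were compared, so the effects of capture, housing, sedative, repeated bleeding and time cannot be told apart. Because the same day 0 libraries serve both the day 3 and the day 14 comparison, the changes against day 0 are not independent of each other.

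Autophagy is the process by which a cell wraps cytoplasm or organelles in a double membrane, the autophagosome, and delivers them to the lysosome. The ULK kinases start it in response to nutrient and energy signals, and BECN1, with the class III phosphatidylinositol 3-kinase, marks the membrane on which the autophagosome grows. ATG7, an E1-like enzyme, and ATG5, joined to ATG12, take part in attaching ATG8-family proteins (MAP1LC3B, GABARAP, GABARAPL1 and GABARAPL2) to the lipid of that membrane, and SQSTM1 (p62) carries ubiquitinated cargo to them. In blood the process is known for the removal of mitochondria and other organelles from reticulocytes as they become red cells, and it also operates in leukocytes and platelets.

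Between 13216275 and 31469332 fragments per library fell on genes, and every member was well counted, from 142 fragments for ULK1 in its lowest library to 74948 for GABARAPL2 in its highest. Levels are given as scaled FPKM, that is, fragments per unit of gene length and of library total, divided by a library factor (TMM) that offsets the dominance of a few abundant genes. This offset matters on day 14, because without it the median of all tested genes moved by -0.36 on the log2 scale against day 0 and by -0.35 against day 3. Whole blood is a mixture, and in such bulk samples fewer cells of a type and less RNA per cell cannot be told apart. The mixture moved with the day. The summed scaled FPKM of 11 erythroid markers ranged from 468 to 24604 (median 4916) on day 0, from 3988 to 45323 (median 14812) on day 3 and from 7908 to 66670 (median 37624) on day 14, and all 11 markers rose on day 14. The median sum of 9 neutrophil markers went from 3538 on day 0 to 2470 on day 3 and 2104 on day 14, and 8 of the 9 fell by day 14, while the sum itself was higher on day 14 in 5 of 15 animals. Most of a sum was often 1 gene, with ALAS2, an enzyme of heme synthesis, holding a median of 80.7% of the erythroid sum, and S100A9, a calcium-binding protein, 72.1% of the neutrophil sum. No marker found was at 0 in all libraries. Among the 45 libraries, 5 had the lowest median correlation with the others over the tested genes (0.927 to 0.936, against 0.941 to 0.967 for the other 40). These were day 0 of animals 7, 11 and 15, day 3 of animal 8 and day 14 of animal 15. The 3 day 0 libraries also had neutrophil marker sums of 29215, 38494 and 41941. Member calls that are lost without these 5 libraries are given with both values. Without them the day 3 changes that did not pass also moved, still without passing, from -0.39 to -0.22 for ULK1, from -0.31 to -0.11 for ATG7, from -0.16 to -0.07 for ATG5, from -0.28 to -0.10 for GABARAPL1, from 0.11 to 0.35 for GABARAP, from 0.14 to 0.39 for MAP1LC3B and from 0.67 to 0.96 for GABARAPL2. From day 3 to day 14 the value that did not pass for BECN1 moved from 0.18 to 0.11 in the same way.

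The 10 genes spanned a wide range of abundance, and their changes went in both directions. On day 3 versus day 0, 2 of the 10 rose (ULK2 and BECN1) and none fell, in a comparison in which 19.6% of the 18753 tested genes passed an adjusted p of 0.05 in limma with the animal as a block (10.3% higher, 9.3% lower). On day 14 versus day 0, 5 rose (GABARAPL2, MAP1LC3B, GABARAP, BECN1 and ULK2), 2 fell (ATG7 and ULK1) and 3 did not pass, with BECN1 and ULK2 at -0.02 and -0.05 when the libraries were not scaled, where 44.3% of all tested genes passed (23.2% higher, 21.1% lower). On day 14 versus day 3, the same 3 ATG8-family genes rose (GABARAPL2, MAP1LC3B and GABARAP) and none fell, where 24% of all tested genes passed (14.2% higher, 9.83% lower). When the libraries were not scaled by TMM, no member rose and 1 fell (GABARAPL1) on day 3, 2 members rose (GABARAPL2 and MAP1LC3B) and 4 fell (ULK1, ATG7, ATG5 and GABARAPL1) on day 14 versus day 0, and 1 rose (GABARAPL2) and 3 fell (ULK1, -0.56, ATG7, -0.74, and SQSTM1, -0.43, with limma adjusted p-values of 0.011, 5.8e-04 and 0.010) on day 14 versus day 3, where the median of all tested genes was -0.35. On that scale 13.1%, 59.1% and 51.1% of the 18753 tested genes passed in the 3 comparisons. Of these genes 1190 rose and 1275 fell on day 3, 1741 and 9334 on day 14 versus day 0, and 936 and 8655 on day 14 versus day 3. Without the animal block 1, 7 and 1 members passed in the 3 comparisons, where 12.5%, 36% and 13.6% of all tested genes did. The median log2 change of the members was 0.13 on day 3, 0.34 on day 14 and 0.18 between them, beside medians of 0.01, -0.02 and -0.02 over all tested genes. In each of these comparisons the animals' ranges overlapped between days for every member. How many of all tested genes overlapped in this way was not counted.

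**Figure D1:**
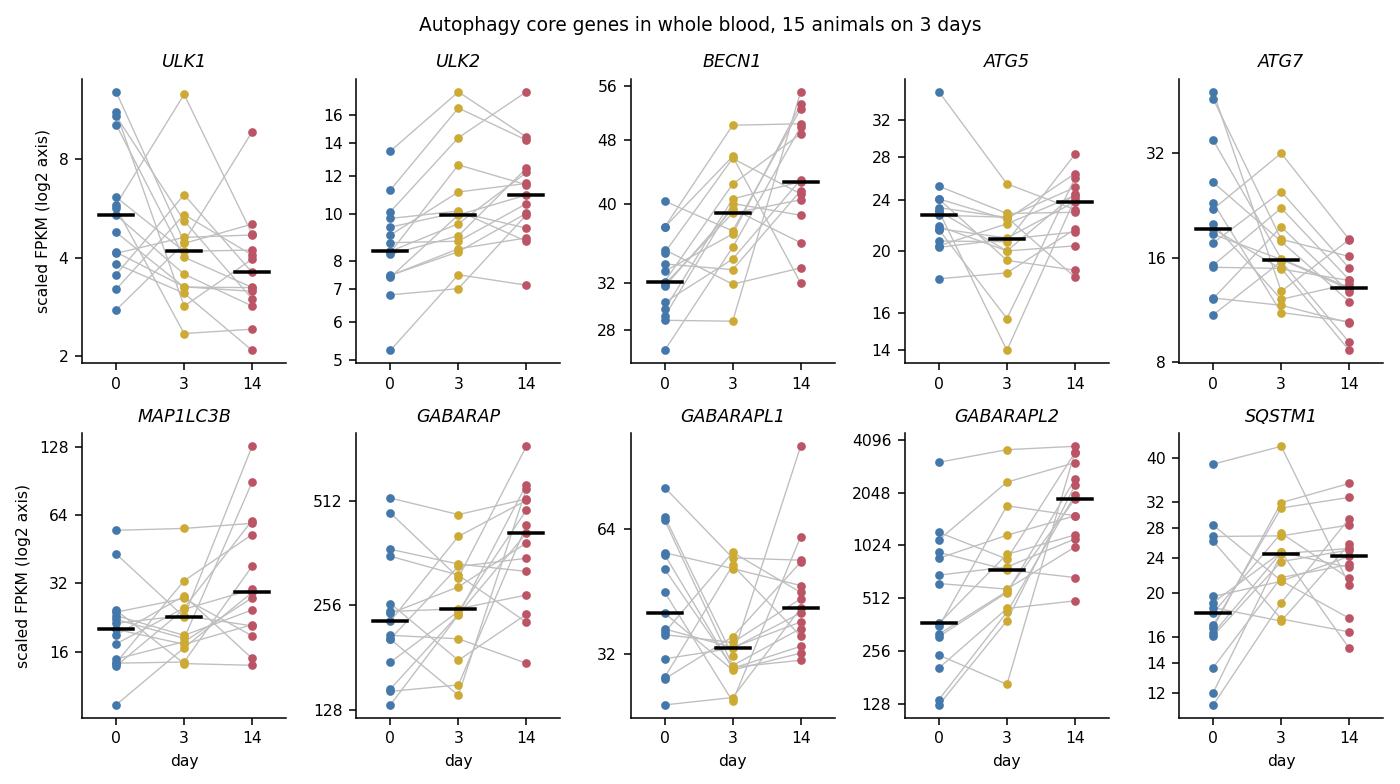
Level of each of the 10 genes (scaled FPKM, log2 axis) on days 0, 3 and 14, with 1 point per library, grey lines joining the libraries of 1 animal and black bars at the median of 15 animals. GABARAPL2 climbed from a median of 368 to 1878, ATG7 and ULK1 have lower medians on day 14, and the days overlap in every panel.

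By scaled FPKM, which allows for gene length, GABARAPL2 had the highest median on every day and ULK1 the lowest. On day 0 the medians ran from GABARAPL2 (368) and GABARAP (231) through GABARAPL1 (40.05), BECN1 (32.1), ATG5 (22.7), MAP1LC3B (20.1), ATG7 (19.4) and SQSTM1 (18.1) to ULK2 (8.38) and ULK1 (5.39). The upper end of this order was the same within most animals, with GABARAPL2 above GABARAP in 11 of 15 animals on day 0 and in 15 of 15 on days 3 and 14. GABARAP stood above the gene next in order in all 15 animals on each day. The middle of the order was not resolved, since on day 0 MAP1LC3B exceeded ATG7 in 6 of 15 animals and ATG7 exceeded SQSTM1 in 7 of 15, and on day 14 SQSTM1 exceeded ATG5 in 7 of 15. The median of ATG7 was below that of ATG5 on every day, and on day 14 ATG7 was below ATG5 in all 15 animals. Animals also differed more in some members than in others. On day 0 the coefficient of variation of scaled FPKM over the 15 animals was 105% for GABARAPL2 and 11.6% for BECN1, and the highest GABARAPL2 library held 24.1 times the lowest.

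With TMM scaling, the ULK kinases moved in opposite directions on day 14 versus day 0. ULK1 had a lowest, median and highest scaled FPKM of 2.77, 5.39 and 12.8 on day 0, of 2.34, 4.18 and 12.6 on day 3, and of 2.08, 3.602 and 9.68 on day 14. Its highest values on day 0 were those of animals 15, 7, 2 and 11 (12.8, 11.1, 10.8 and 10.2), of which animal 2 is not among the libraries named above as standing apart, and the single high value on day 3 was that of animal 8, which is. ULK1 fell by 0.58 on the log2 scale on day 14 (SE 0.19, 1.49-fold lower, limma adjusted p = 0.014, lower in 11 of 15 animals), and without TMM the value was -0.99. Without the 5 libraries the value was -0.41 with a limma adjusted p of 0.051, and after adjustment for RNA integrity number it was -0.25 (SE 0.23) with a limma adjusted p of 0.49. RNA integrity was itself higher on average on the later days, so this covariate and the day are partly confounded wherever it is used here. On day 3 its change of -0.39 (SE 0.19) did not pass (limma adjusted p = 0.15).

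ULK2, the paralog of ULK1, had a lowest, median and highest scaled FPKM of 5.23, 8.38 and 13.5 on day 0, of 7.02, 9.97 and 17.9 on day 3, and of 7.14, 10.95 and 17.9 on day 14. The rise was small and regular, and animals 1, 2 and 4 were the 3 highest on each day. ULK2 rose by 0.28 on the log2 scale on day 3 (SE 0.067, 1.21-fold, limma adjusted p = 0.0043), and all 15 animals were higher than on day 0. Without the animal block the same change had a limma adjusted p of 0.15; without TMM scaling the value was 0.23 with a limma adjusted p of 0.31. On day 14 ULK2 stood 0.37 above day 0 (SE 0.067, 1.29-fold, limma adjusted p = 5.2e-05, higher in 13 of 15 animals), and it did not differ detectably from day 3 (0.09, SE 0.067, limma adjusted p = 0.33). The direction on day 14 rested on the library scaling: without TMM the ULK2 value was -0.05, against a median of -0.36 for all tested genes.

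The gap between the ULK kinases does not depend on that scaling, because a library's factor cancels in a ratio of its genes. The within-animal change of ULK1 minus that of ULK2 was -0.94 on the log2 scale on day 14 (SE 0.23, n = 15), below 0 in 13 of 15 animals, with an adjusted p of 0.0019 by a two-sided exact sign-flip permutation test over animals. On day 3 the same difference was -0.67 (SE 0.27), below 0 in 11 of 15 animals, with an adjusted p of 0.041 in the same exact test, and leaving out any 1 of animals 1, 2, 4, 7, 10, 11, 12, 13, 14 and 15 raised that adjusted p to between 0.052 and 0.077. From day 3 to day 14 it was -0.27 (SE 0.16, adjusted p = 0.13 by the exact permutation test), and without animal 15 it was -0.37 (adjusted p = 0.018, exact permutation test). These adjusted p-values cover 21 tests, 7 pairs of related genes in 3 comparisons. Across the 45 libraries ULK1 and ULK2 had a Pearson r of -0.48 on the log2 scale, given as a description of libraries that share animals and days.

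BECN1, the scaffold of the class III phosphatidylinositol 3-kinase complex, was the member that varied least between animals on day 0. Its lowest, median and highest scaled FPKM were 26.4, 32.1 and 40.4 on day 0, 28.7, 39.0 and 50.1 on day 3, and 32.0, 42.7 and 55.1 on day 14. On day 14, 11 of 15 libraries lay above the highest day 0 scaled value, the largest such count of any member that rose, although the lowest day 14 value (animal 5) was still within the day 0 range. Without TMM the highest day 14 value (47.1) lay below the highest day 0 value (49.4). Counts of this kind, here and below, were not taken over all tested genes. BECN1 rose by 0.41 on the log2 scale on day 14 (SE 0.080, 1.33-fold, limma adjusted p = 1.2e-04, higher in 13 of 15 animals). Without TMM scaling this value was -0.02, again against the median of -0.36. The rise of 0.23 on day 3 (SE 0.080, 1.17-fold, limma adjusted p = 0.039, higher in 11 of 15 animals) lay close to the threshold. Leaving out any 1 of animals 1, 2, 3, 6, 7, 11, 12, 13 and 14 gave limma adjusted p-values of 0.052 to 0.084, the RNA integrity covariate gave 0.13, and no TMM scaling gave 0.19. From day 3 to day 14 the value was 0.18 (SE 0.080, limma adjusted p = 0.10), and without animal 5 it was 0.23 with a limma adjusted p of 0.032.

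Of the 2 genes of the conjugation machinery, 1 fell on day 14 and 1 had no called change, and the difference between their changes was not tested. ATG7 had a lowest, median and highest scaled FPKM of 10.97, 19.4 and 48.1 on day 0, of 11.1, 15.8 and 32.0 on day 3, and of 8.67, 13.1 and 18.1 on day 14. Both its level and its spread narrowed, and 9 of 15 day 0 libraries lay above the highest day 14 library. ATG7 fell by 0.67 on the log2 scale on day 14 (SE 0.15, 1.59-fold lower, limma adjusted p = 4.3e-04), and it was lower in 14 of 15 animals. Without TMM the ATG7 value was -1.09. The 3 highest values on day 0 were those of animals 7, 15 and 11 (48.1, 45.9 and 34.9), the libraries with the high neutrophil marker sums. Without the 5 libraries that stood apart the change was -0.44 (limma adjusted p = 0.0060), and with the RNA integrity covariate it was also -0.44 (limma adjusted p = 0.081). On day 3 the change of -0.31 (SE 0.15) did not pass (limma adjusted p = 0.14), nor did the change of -0.36 from day 3 to day 14 (SE 0.15, limma adjusted p = 0.069), which without animal 7 was -0.42 with a limma adjusted p of 0.022.

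ATG5, the partner of ATG12 in the conjugate that guides ATG8 proteins to the membrane, had a lowest, median and highest scaled FPKM of 18.1, 22.7 and 35.4 on day 0, of 14.0, 20.8 and 25.4 on day 3, and of 18.2, 23.8 and 28.3 on day 14. Its day 14 level did not differ detectably from day 0, with a log2 change of 0.02 and a 95% interval of -0.13 to 0.17 (limma adjusted p = 0.85). On day 3 the value was -0.16 (SE 0.074, lower in 12 of 15 animals, limma adjusted p = 0.12), and from day 3 to day 14 it was 0.19 (SE 0.074, higher in 12 of 15 animals, limma adjusted p = 0.064), so the lower day 3 level passed in neither comparison. Without animal 6 or animal 11 the second of these had a limma adjusted p of 0.035 or lower. Without TMM scaling, ATG5 was lower on day 14 (-0.40, limma adjusted p = 0.0029), a value close to the median of all genes on that scale.

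The ATG8 family gave the largest change. GABARAPL2 (GATE-16) had a lowest, median and highest scaled FPKM of 126, 368 and 3047 on day 0, of 166, 744 and 3591 on day 3, and of 495, 1878 and 3754 on day 14. Animal 7 had the highest level on all 3 days, and 8 of 15 day 0 libraries lay below the lowest day 14 library. GABARAPL2 rose by 1.83 on the log2 scale on day 14 (SE 0.31, 3.55-fold, limma adjusted p = 1.8e-05), a log2 change above that of 98.1% of tested genes. It was higher in 14 of 15 animals, with changes from -0.48 to 4.15. The rise held without TMM scaling (1.40), with the RNA integrity covariate (1.67, limma adjusted p = 0.0031) and without the 5 libraries (1.88). Much of it came after day 3, since GABARAPL2 rose by 1.16 from day 3 to day 14 (SE 0.31, 2.23-fold, limma adjusted p = 0.0080, higher in 13 of 15 animals), while its change of 0.67 on day 3 (SE 0.31, higher in 11 of 15) did not pass (limma adjusted p = 0.13).

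GABARAP, the founding member of its subfamily, had a lowest, median and highest scaled FPKM of 132, 231 and 522 on day 0, of 141, 250 and 468 on day 3, and of 174, 414 and 737 on day 14. On day 0 the highest libraries were again those of animals 7, 15 and 11, and on day 14 animal 15 was highest. GABARAP rose by 0.68 on the log2 scale on day 14 (SE 0.18, 1.61-fold, limma adjusted p = 0.0023), in 10 of 15 animals, and the changes of single animals ran from -0.63 to 2.11. With the RNA integrity covariate the value was 0.50 with a limma adjusted p of 0.11, and without TMM it was 0.26 with a limma adjusted p of 0.054. From day 3 to day 14 GABARAP rose by 0.57 (SE 0.18, 1.49-fold, limma adjusted p = 0.020, higher in 12 of 15 animals). That call was lost without the animal block (0.052), without the 5 libraries (0.44 with an adjusted p of 0.086), with the covariate (0.10), without TMM (0.17), and without animal 8 or 9 (0.055 to 0.065), all as limma adjusted p-values. On day 3 the value was 0.11 (SE 0.18, limma adjusted p = 0.70).

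MAP1LC3B, the LC3 protein most used as a marker of autophagosomes, had a lowest, median and highest scaled FPKM of 9.32, 20.1 and 54.8 on day 0, of 14.2, 22.7 and 55.8 on day 3, and of 13.9, 29.2 and 128 on day 14. The spread widened on day 14, with animals 15 (128) and 8 (89.3) far above the median. MAP1LC3B rose by 0.74 on the log2 scale on day 14 (SE 0.21, 1.66-fold, limma adjusted p = 0.0045, higher in 11 of 15 animals; without TMM 0.31, adjusted p = 0.043, higher in 9 of 15), and by 0.60 from day 3 to day 14 (SE 0.21, 1.51-fold, limma adjusted p = 0.034, higher in 11 of 15). The second call was lost without the animal block (0.10), without the 5 libraries (0.37 with an adjusted p of 0.19), with the covariate (0.081), without TMM (0.17) and without any 1 of animals 3, 8, 9, 12, 14 and 15 (0.057 to 0.11), all by limma. On day 3 the value was 0.14 (SE 0.21, limma adjusted p = 0.69).

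GABARAPL1 was the ATG8-family member with no called change. Its lowest, median and highest scaled FPKM were 24.1, 40.05 and 80.3 on day 0, 24.6, 33.0 and 56.1 on day 3, and 30.9, 41.2 and 101 on day 14. The day 3 libraries sat lower than those of the other days, but with wide overlap. The log2 change was -0.28 on day 3 (SE 0.15, limma adjusted p = 0.19), 0.04 on day 14 (95% interval -0.26 to 0.34, limma adjusted p = 0.85) and 0.32 from day 3 to day 14 (SE 0.15, limma adjusted p = 0.11). Without the 5 libraries the last value was 0.15 (limma adjusted p = 0.47). Without TMM scaling the day 3 value was -0.32 (limma adjusted p = 0.031) and the day 14 value -0.39 (limma adjusted p = 0.0017), the latter close to the median of all genes on that scale.

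The 4 ATG8-family genes did not move by the same amount. Of the 21 tests of differences in change between related genes, 15 passed, 6 of 7 on day 3, 6 of 7 on day 14 and 3 of 7 from day 3 to day 14. On day 14 GABARAPL2 outran GABARAP by 1.14 on the log2 scale (SE 0.21, a 2.21-fold shift of their ratio) and GABARAPL1 by 1.79 (SE 0.26, 3.45-fold), in 15 of 15 animals for both, with an adjusted p of 3.2e-04 by the exact sign-flip permutation test. The unadjusted p of 6.1e-05 is the smallest that 15 animals can give. GABARAP in turn outran GABARAPL1 by 0.65 in all 15 animals (SE 0.10, adjusted p = 3.2e-04, exact permutation test). The shift toward GABARAPL2 was present on day 3, when its change exceeded that of GABARAPL1 by 0.95 (SE 0.16, 15 of 15 animals, adjusted p = 3.2e-04, exact permutation test) and that of GABARAP by 0.56 (SE 0.18, 13 of 15 animals, adjusted p = 0.0016, exact permutation test), although the change of GABARAPL2 alone did not pass on that day. For MAP1LC3B and GABARAP no difference was detected on day 14 (0.05, SE 0.13, adjusted p = 0.75 by the exact permutation test), nor on day 3 (0.03, SE 0.12, adjusted p = 0.85 by the same test).

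These ratios can also be read as shares of the summed level of the 4 genes, which are free of library scaling. GABARAPL2 made up 60.2% ± 13.8 (SD, n = 15) of the summed FPKM on day 0, 69.6% ± 9.93 on day 3 and 78.1% ± 4.44 on day 14. Its share was higher than on day 0 in 14 of 15 animals on day 3 and in all 15 on day 14, and the spread between animals narrowed. GABARAP went from 31.3% ± 10.6 to 24.8% ± 7.75 and 18.1% ± 3.63, and GABARAPL1 from 5.84% ± 2.69 to 3.46% ± 1.44 and 2.16% ± 0.902. GABARAPL1 had a lower share than on day 0 in every animal on both later days. MAP1LC3B held 2.67% ± 1.04 on day 0 and 1.62% ± 0.520 on day 14. The median of the summed level itself went from 805 scaled FPKM at baseline to 1068 on day 3 and 2362 on day 14, so that on day 14 the lower shares of GABARAP and MAP1LC3B went with higher levels.

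**Figure D2:**
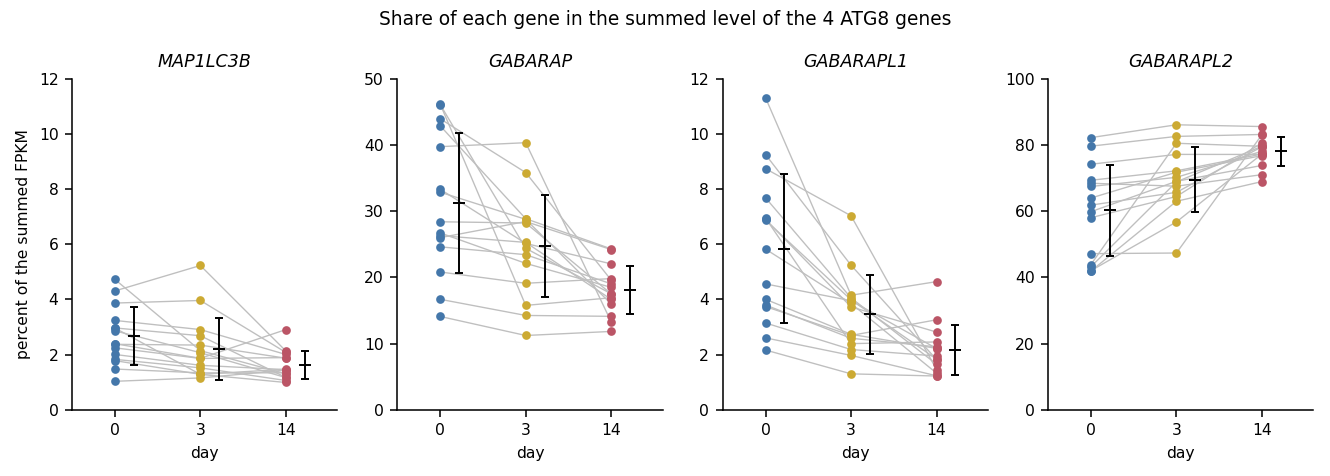
Share of each ATG8-family gene in the summed FPKM of the 4 (percent) on days 0, 3 and 14, with 1 point per library, grey lines joining the libraries of 1 animal and black marks for the mean with its SD (n = 15). The share of GABARAPL2 rose from 60.2% to 78.1% while the animals drew closer together.

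SQSTM1, the cargo receptor p62, had a lowest, median and highest scaled FPKM of 11.3, 18.1 and 38.8 on day 0, of 17.4, 24.5 and 42.5 on day 3, and of 15.1, 24.2 and 35.1 on day 14. On day 3, 7 of the 15 day 0 libraries lay below the lowest library, and animal 13 was highest on day 0 and on day 3. The log2 change was 0.37 on day 3 (SE 0.14, higher in 12 of 15 animals) with a limma adjusted p of 0.055, and 0.32 on day 14 (SE 0.14, higher in 11 of 15 animals) with a limma adjusted p of 0.054. Both values lay just outside the threshold, and other choices moved them either way. On day 3 and day 14 the limma adjusted p was 0.22 and 0.25 without the 5 libraries, 0.092 and 0.21 with the RNA integrity covariate, and 0.12 and 0.52 without TMM. It passed at 0.046 and 0.048 when only genes with a mean of at least 1 FPKM were tested, and at 0.049 on day 14 in limma-voom on recovered fragments. Leaving out animal 4, 10 or 13 gave limma adjusted p-values of 0.024 to 0.039 on day 3, and leaving out animal 2, 4, 10 or 13 gave 0.012 to 0.035 on day 14. Without TMM the log2 change on day 14 was -0.10. From day 3 to day 14 the value was -0.04 (95% interval -0.32 to 0.23, limma adjusted p = 0.84), and without TMM it was -0.43 (limma adjusted p = 0.010, higher in 3 of 15 animals).

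**Figure D3:**
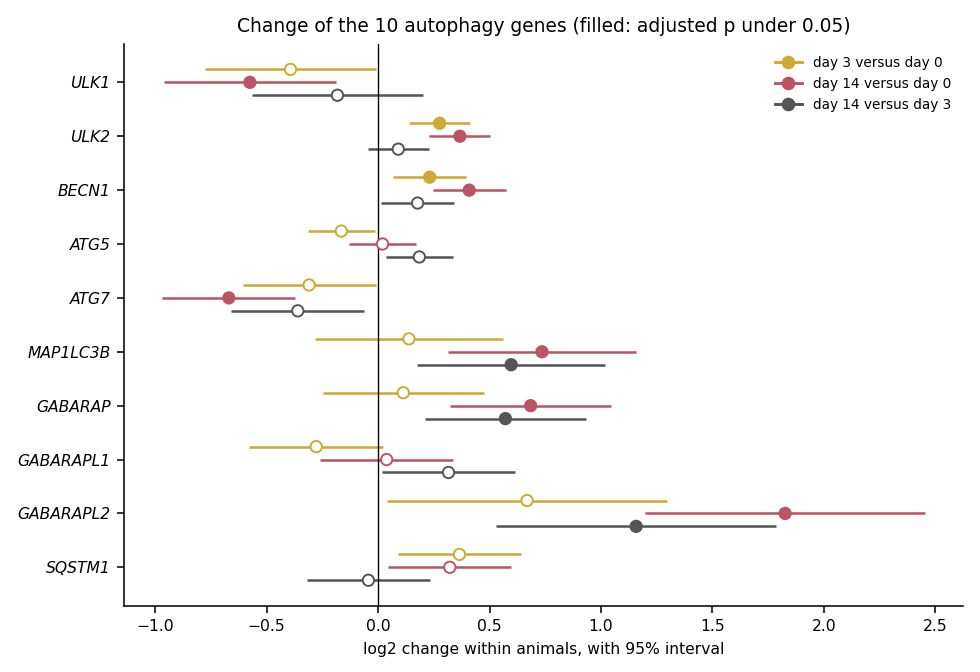
Within-animal log2 change of each gene in the 3 comparisons, with 95% intervals from limma, where filled points passed an adjusted p of 0.05. GABARAPL2 lies farthest from 0 at 1.83 on day 14, and ULK1 and ATG7 are the 2 genes with filled points below 0.

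On TMM-scaled values, levels of several members ran in parallel with marker sums of blood cell types. Each r given in this text between genes or with markers is on such values, in which all genes of a library share 1 divisor. The divisor ran from 0.54 to 1.49, and r without TMM was not taken. Over the 45 libraries, which share 15 animals and 3 days, the log2 level of GABARAPL2 had a Pearson r of 0.93 with the log2 erythroid marker sum, and 0.91 after the mean of each day was removed. GABARAP (0.80), BECN1 (0.76) and MAP1LC3B (0.71) were lower, GABARAPL1 (0.43) and SQSTM1 (0.32) lower still, and ATG5 (0.07) and ULK2 (0.08) near 0. With the mean of each day removed, GABARAP had 0.775, BECN1 0.588, MAP1LC3B 0.676, GABARAPL1 0.608, SQSTM1 0.143 and ATG5 0.091. ULK2 then ran against the erythroid sum (-0.298), while ULK1 and ATG7 went from -0.167 and -0.202 to 0.135 and 0.218. On day 14 the change of GABARAPL2 had the same sign as that of the erythroid sum in all 15 animals. Animal 13, the only animal in which GABARAPL2 was lower on day 14 than on day 0 (-0.48), was also the only one whose erythroid sum was lower (-1.24 on the log2 scale). In animal 7 the erythroid sum was already 24604 on day 0, the highest of that day, as was GABARAPL2 (3047). ATG7 and ULK1 had their highest r among these sums with the neutrophil sum (0.73 and 0.69), as did GABARAPL1 (0.60). After the mean of each day was removed, the r with the neutrophil sum was 0.67 for ATG7, 0.63 for ULK1, 0.68 for GABARAP, 0.67 for GABARAPL1 and 0.52 for GABARAPL2 and MAP1LC3B, so the ATG8-family genes ran with it as well within days. ATG7 and ULK1 ran against the T cell sum (-0.80 and -0.70), whose median went from 374 to 396 and 435 and which was higher on day 14 than on day 0 in 12 of 15 animals, while ULK2 ran against the neutrophil sum (-0.66). Of the 7 T cell markers 3 rose and none fell on day 14 versus day 0. The mean log2 levels of CD3E, CD4 and CD5 were lower on day 14 (3.45, 1.48 and 3.59, against 3.61, 1.65 and 3.69). With the platelet sum, whose median went from 591 to 1850 and 1406, no member had an r above 0.52, the value of GABARAPL2 and of BECN1. MAP1LC3B, GABARAP, GABARAPL1 and GABARAPL2 ran against the B cell sum (-0.68, -0.74, -0.78 and -0.67), whose median was 271 on day 0 and 186 on day 14, although the sum was higher on day 14 than on day 0 in 7 of 15 animals. ULK2 had its highest r with the NK cell sum (0.61), whose median went from 239 to 472 and 773, and ATG7 and ULK1 also ran with the monocyte sum (0.64 and 0.56), whose median went from 341 to 436 and 308 and which was higher on day 14 than on day 3 in 1 of 15 animals. As the sums lean on single genes, the r was also taken with the mean log2 level of each marker list, in which every gene counts the same (chosen after seeing the data). GABARAPL2 then had an r of 0.94 with the erythroid markers, ATG7 and ULK1 had 0.865 and 0.819 with the neutrophil markers and -0.672 and -0.552 with the T cell markers, and ULK2 had -0.603 with the neutrophil and 0.695 with the NK cell markers. With the erythroid sum without ALAS2 the r of GABARAPL2 was 0.96. The platelet values leaned on PPBP, which held a median of 83.9% of that sum, and without it GABARAPL2 and BECN1 had an r of 0.30 and 0.29 and SQSTM1 one of 0.52. The part of these cell types in the members' changes was not tested.

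**Figure D4:**
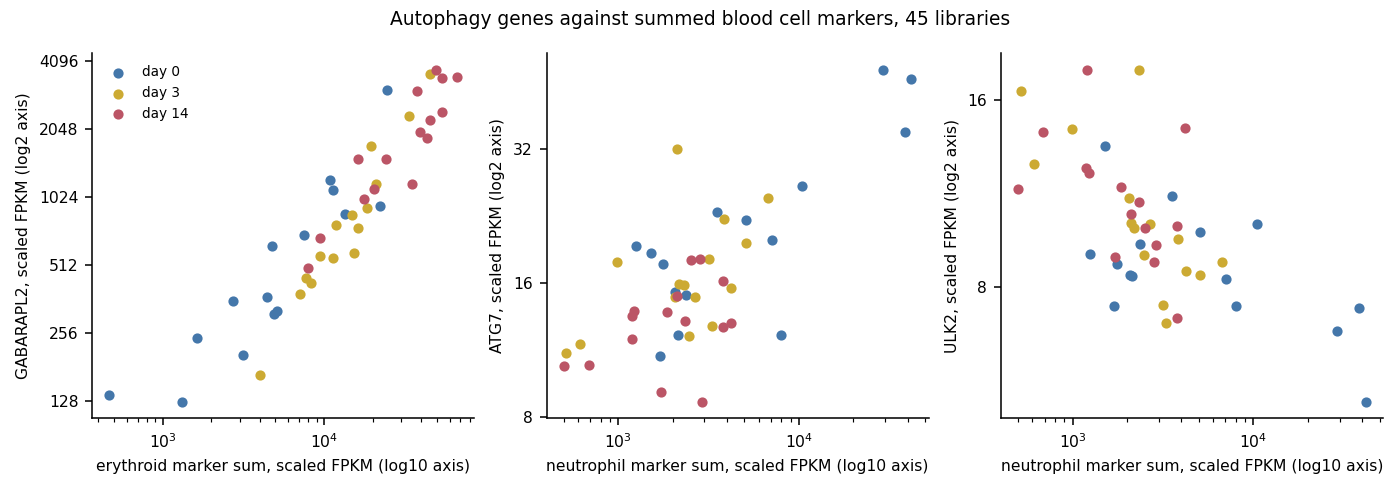
Scaled FPKM of GABARAPL2 against the erythroid marker sum, and of ATG7 and ULK2 against the neutrophil marker sum, in 45 libraries colored by day (log axes). GABARAPL2 rises with the erythroid sum over the 45 libraries (r = 0.93, and 0.91 with the mean of each day removed). The 3 day 0 libraries with neutrophil sums of 29215 to 41941 are high in ATG7 and low in ULK2.

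Among themselves the members were correlated to different degrees, on the same TMM-scaled values. The scaling widened the day 0 range of GABARAP to 132 to 522, from 186 to 369 without it. That of ULK2 narrowed to 5.23 to 13.5, from 4.08 to 15.4. GABARAP had a Pearson r of 0.89 with GABARAPL2, of 0.84 with MAP1LC3B and of 0.76 with GABARAPL1 over the 45 libraries. ULK1 and ATG7 had an r of 0.85, and their r with GABARAPL1 was 0.46 and 0.42, while neither correlated beyond 0.30 in size with GABARAP, GABARAPL2, MAP1LC3B or BECN1. With the mean of each day removed, ATG7 had an r of 0.53 with MAP1LC3B, 0.54 with GABARAPL1 and 0.41 with GABARAP, and ULK1 had 0.52, 0.51 and 0.37 with the same genes. SQSTM1 stood by itself, with a highest r of 0.21, with BECN1, and a lowest of -0.43, with ATG5. Outside the list, the genes most like GABARAPL2 were YPEL5 (0.98), BNIP3L (0.98), a mitophagy receptor of the outer mitochondrial membrane, and FBXO9 (0.98). Those most like GABARAP were TALDO1 (0.94), SDHB (0.94), a subunit of succinate dehydrogenase, and NFE2 (0.93), an erythroid and megakaryocytic transcription factor. Those most like ATG7 were WDFY3 (0.95), itself an autophagy adaptor, DAPK1 (0.94) and SLC22A15 (0.94), and those most like ULK1 were RARA (0.91), PTPRS (0.91) and PLEKHM1 (0.91), an adaptor for the fusion of autophagosomes with lysosomes. MAP1LC3B was most like PNRC1 (0.93), UBE2B (0.92) and WDR26 (0.92). BECN1 was most like PSMD1, ASNA1 and CDC37 (0.86 each), ATG5 like LOC103228806 (0.87), TBC1D23 (0.86) and CCNC (0.85), and GABARAPL1 like UBR2 (0.88), LOC103219923 (0.87) and C9H10orf118 (0.86). ULK2 and SQSTM1 had weaker matches, PRR5L (0.84), RASGEF1A (0.80) and USP28 (0.79) for ULK2, and ADCK3 (0.77), HNRNPL (0.73) and TRIB3 (0.70) for SQSTM1.

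The other genes of the pathway also moved in both directions. Of 70 further autophagy genes listed by role, 69 were found and 68 tested. On day 3, 11 of the 68 rose and 7 fell, with a median log2 change of 0.07; on day 14, 18 rose and 17 fell, with a median of -0.01; and from day 3 to day 14, 11 rose and 8 fell, with a median of -0.07. These counts depended on the library scaling, and without TMM 6 rose and 7 fell on day 3, 9 rose and 46 fell on day 14, and 3 rose and 45 fell from day 3 to day 14, with medians of 0.03, -0.43 and -0.44. Without TMM, of all 18753 tested genes, 1190 rose and 1275 fell on day 3, 1741 and 9334 on day 14, and 936 and 8655 from day 3 to day 14. With TMM, set beside the shares of all tested genes (10.3% higher and 9.3% lower on day 3, 23.2% and 21.1% on day 14, 14.2% and 9.83% from day 3 to day 14), the list gave 16.2% and 10.3%, 26.5% and 25%, and 16.2% and 11.8%. Of the 4 partners of the ULK kinases none passed on day 14, and of 7 partners of BECN1 2 rose and 2 fell. Of 9 conjugation enzymes 2 rose and 3 fell on day 14, and of 6 other cargo receptors and adaptors 4 rose and 1 fell. Of 11 genes for ATG9 vesicles, lipid transfer and lipid binding 3 rose and 3 fell, and of 5 lysosomal genes 2 rose and none fell. Of 14 genes for fusion with the lysosome 1 rose and 4 fell, and of 11 upstream regulators 4 rose and 4 fell. Without TMM, where the median of all tested genes was -0.36, falls outnumbered rises on day 14 in every role except the cargo receptors and the lysosomal genes, each with 2 that rose and 2 that fell. None rose and 3 fell among the ULK partners, 1 rose and 5 fell among the BECN1 partners, and none rose and 7 fell among the conjugation enzymes. On that scale 1 rose and 7 fell among the genes for ATG9 vesicles, lipid transfer and lipid binding, none rose and 12 fell among the fusion genes, and 3 rose and 7 fell among the upstream regulators.

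Among the genes of this list with a mean of at least 5 CPM (fragments per library total, not per length), those that rose most on day 14 were FOXO3 (2.29 on the log2 scale, SE 0.32, limma adjusted p = 1.8e-06), a transcription factor of autophagy genes, and the cargo receptor TAX1BP1 (1.63, SE 0.22, limma adjusted p = 9.2e-07), which was higher in all 15 animals. WDR45, which binds the lipid made by the BECN1 complex, rose by 1.31 (SE 0.25, limma adjusted p = 1.1e-04). ATG14, which directs the BECN1 complex to autophagosome formation, rose by 1.03 (SE 0.17, limma adjusted p = 1.2e-05). The largest falls at that abundance were those of WDFY3 (-1.62, SE 0.23, limma adjusted p = 2.3e-06), of the fusion tether EPG5 (-0.61, SE 0.11, lower in all 15 animals, limma adjusted p = 2.8e-05), of ATG16L2 (-0.59, limma adjusted p = 0.0022) and of PLEKHM1 (-0.56, limma adjusted p = 0.0043). With the RNA integrity covariate the last 2 had limma adjusted p-values of 0.091 and 0.21. Without TMM the value of ATG14 was 0.61, and those of EPG5, ATG16L2 and PLEKHM1 were -1.04, -1.02 and -0.98. MITF, a transcription factor related to TFEB, had a mean of 3.36 CPM, below that limit, and is named because its change was seen to be larger than that of EPG5. It fell by 0.80 on the log2 scale (limma adjusted p = 2.5e-04).

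On day 3 the largest rises in the pathway list, with the same limit of 5 CPM, were FOXO3 (1.43), the lysosomal protease gene CTSB (0.91), WDR45 (0.74) and RPTOR (0.63), the raptor subunit of mTORC1, with limma adjusted p-values between 7.0e-04 and 0.037. WDR45 did not pass with the covariate (0.080) or without the block (0.11). The largest falls were WDFY3 (-0.97), ATG3 (-0.55), the E2-like enzyme for ATG8 proteins, NRBF2 (-0.42) and TSC1 (-0.36), with limma adjusted p-values between 0.0040 and 0.016. Without the 5 libraries these 4 had values of -0.63, -0.35, -0.19 and -0.17, and none of the 4 passed (0.060 to 0.27). TSC1 did not pass with the covariate either (0.061). MITF, below the limit, fell by 0.50 on the log2 scale (limma adjusted p = 0.034), and without the 5 libraries its value was -0.60 (limma adjusted p = 0.032). Its limma adjusted p on day 3 was 0.082 without TMM, and 0.12 with the covariate and without the block.

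From day 3 to day 14 the largest rises above the limit were TAX1BP1 (1.04), FOXO3 (0.87), the protease gene CTSL (0.79) and RHEB (0.66), an activator of mTORC1, and CTSL and RHEB were higher in all 15 animals. FOXO3 (limma adjusted p = 0.049) did not pass without the 5 libraries (0.64, limma adjusted p = 0.19). The largest falls were WDFY3 (-0.65), KIAA0226 (-0.50), which encodes the autophagy inhibitor Rubicon, ATG9A (-0.37) and BCL2 (-0.34), with limma adjusted p-values between 0.0071 and 0.040. With the covariate FOXO3, WDFY3, KIAA0226 and ATG9A did not pass (0.057 to 0.22), and without the block FOXO3, WDFY3 and ATG9A did not (0.079 to 0.12). Without TMM the rises of TAX1BP1, CTSL and RHEB were 0.65, 0.41 and 0.28, FOXO3 stood at 0.48 and did not pass (limma adjusted p = 0.091), and WDFY3, KIAA0226, ATG9A and BCL2 were at -1.03, -0.87, -0.74 and -0.72.

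**Figure D5:**
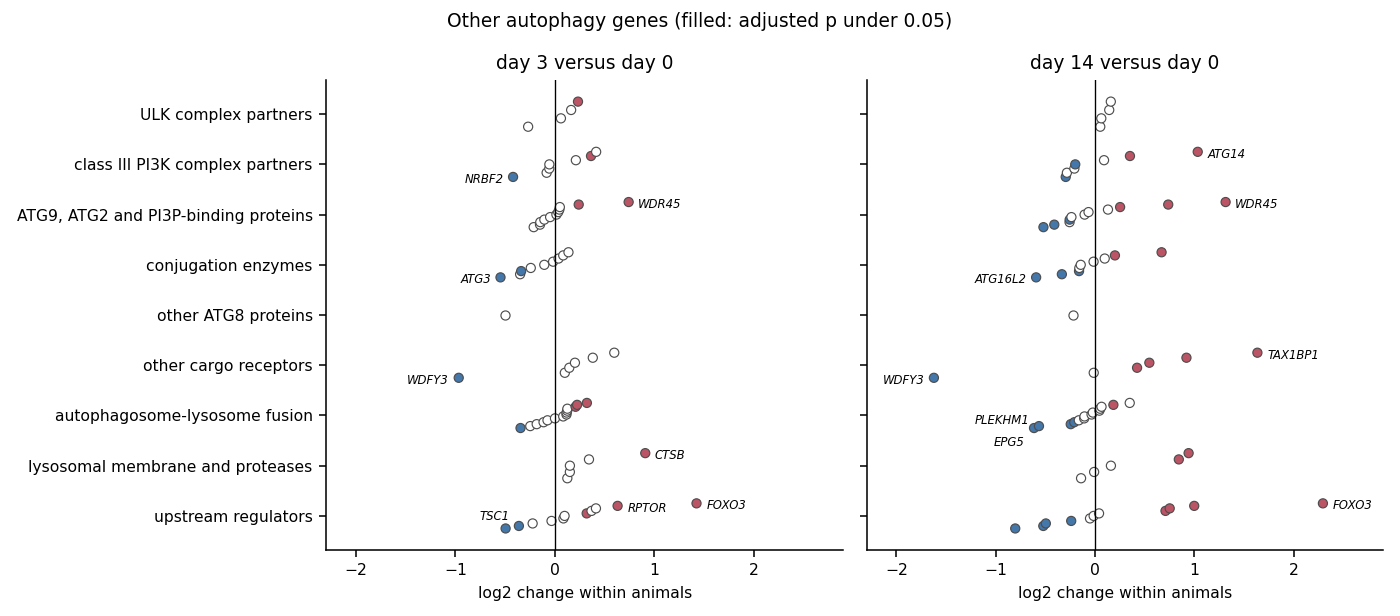
Log2 change within animals of 68 other autophagy genes, 1 point per gene in rows by role, on day 3 and day 14 against day 0, where red points rose and blue points fell at an adjusted p of 0.05 and open points did not pass. Labels mark the genes with the largest changes among those of at least 5 CPM (fragments scaled to the library total) on average, and on day 14 there are 18 red and 17 blue points.

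On TMM-scaled values, the animals differed in how many members were higher. On day 14 the number of members above their own day 0 level ranged from 3 of 10 in animals 4 and 13 to 9 of 10 in animals 5 and 9. These counts depend on the TMM factor, which divides all members of a library alike. From day 0 to day 14 it went from 1.13 to 0.73 in animal 5 and from 1.49 to 0.79 in animal 9. It went from 1.21 to 1.34 in animal 4 and from 1.01 to 1.14 in animal 13. A lower factor raises every member, and a higher factor lowers it. The counts were not taken without TMM, so the difference between animals may rest on this scaling. ULK2 was higher on day 14 in animals 4 and 13 too, so that the animals with few higher members still shared its rise. In animal 13 ULK2 (0.59), BECN1 (0.24) and ATG5 (0.45) were higher on the log2 scale, and all 4 ATG8-family genes, SQSTM1 (-0.89), ULK1 (-0.90) and ATG7 (-0.57) were lower. In animal 14, which had the lowest GABARAPL2 level on day 0, GABARAPL2 was 4.15 and GABARAP 2.11 higher on day 14, the widest change of either gene between day 0 and day 14.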

How the data were processed

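Whole-blood RNA from PAXgene tubes was depleted of ribosomal and globin RNA and sequenced as stranded paired-end libraries. The authors aligned reads to Chlorocebus_sabeus 1.1 with STAR and counted fragments with HTSeq. The deposited values are FPKM per gene symbol, with 1 table per library. How fragments shared by close paralogs were assigned is not given in the sources used here. Whole fragments were recovered for 100% of genes (tolerance 0.05 fragments). Genes with over 0.5 CPM in at least 3 samples (18753) were tested. FPKM were scaled by TMM, 0.1 was added, and log2 values were fitted with limma 3.58.1 (R 4.3.3, trend in the prior variance), with the animal as a fixed block, all 45 libraries in 1 fit and Benjamini-Hochberg adjustment over all tested genes. Fold changes are on the log2(FPKM + 0.1) scale. Limma was used because the deposited unit is FPKM, although the study modeled counts. Differences between related genes were tested by exact sign-flip permutation over 15 animals. Pairing comes from the animal labels, and same-animal libraries deviated together (mean r 0.328, against -0.0382 for different animals, lowest same-animal pair -0.0433).

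Members and gene lists were chosen with earlier results of these data known. Text names all members, in each comparison up to 4 called pathway genes per direction with the largest change (mean of at least 5 CPM), and the 3 genes of at least 1 FPKM most correlated with each member. LAMP2, PF4 and TRAT1 were among the listed symbols not matched, and MAP1LC3C was not tested. The fit was checked on simulated data. Each member had at least 142 fragments in every library.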

Additional observations from a re-analysis of the deposited data

How the results depend on the processing

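GABARAPL2 and MAP1LC3B kept their day 14 versus day 0 calls under all 11 alternatives other than leaving out an animal, and all 7 members called on day 14 kept their calls without any 1 of the 15 animals. The number of members called on day 3 versus day 0 was 2, and 1 with no replicate block, no TMM scaling, median-of-ratios scaling, no filter on low values, or a replicate block with RNA integrity number. On day 14 versus day 0 it was 7, and 4 with that covariate. On day 14 versus day 3 it was 3, and 1 with no replicate block, with the covariate, or without the 5 least correlated libraries (chosen after seeing the data). The block changed 3 of 30 member calls (ULK2 on day 3, MAP1LC3B and GABARAP on day 14 versus day 3) and no other. Leaving out 1 animal gave 1 to 3, 7 to 8 and 1 to 4 members called, and 14 to 16 of 21 paralog differences. Over all tested genes, 3673, 8300 and 4505 were called; 2337 and 2543 with no replicate block on day 3 versus day 0 and day 14 versus day 3; 9591 (936 higher) on day 14 versus day 3 with no TMM scaling; 4148 and 1900 with the covariate on day 14 versus day 0 and versus day 3; and 2334 on day 3 without the 5 libraries. Leaving out 1 animal gave 2805 to 3737, 7491 to 8400 and 2789 to 5128, with the lowest of each range without animals 2, 14 and 8 in turn. Without TMM 15.7% of day 14 versus day 0 calls were higher, against 52.3% with it, and 9.76% against 59.1% for day 14 versus day 3. Limma-voom on the recovered fragments called 3519, 7847 and 4412.

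Reversed without TMM were ULK2 (-0.054), BECN1 (-0.015), ATG5 (-0.40), GABARAPL1 (-0.39) and SQSTM1 (-0.10) on day 14 versus day 0, and ULK2 (-0.29), BECN1 (-0.21), ATG5 (-0.20) and GABARAPL1 (-0.066) on day 14 versus day 3. By construction this setting leaves in the shift of the median gene. With the covariate ATG5 (-0.051) and GABARAPL1 (-0.0071) reversed on day 14 versus day 0; the cause was not tested. Leaving out 1 animal turned the sign of values near 0, with ranges of -0.010 to 0.065 for ATG5 and -0.025 to 0.10 for GABARAPL1 on day 14 versus day 0, -0.091 to 0.026 for SQSTM1 on day 14 versus day 3, and, for MAP1LC3B minus GABARAP, -0.028 to 0.088, -0.011 to 0.11 and -0.060 to 0.080 on day 3 versus day 0, day 14 versus day 0 and day 14 versus day 3. Each member had at least 142 fragments in every library, and counting error was not separated from the spread between animals.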
